A study of Mus musculus with 34 samples.

Results

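The 45 genes described here are the rows of a mouse count table whose name starts with Rbm or Srsf followed by a digit, out of 13108 gene rows. The rule reads the name alone and no measured value, but it was set with earlier results of these data known. They are 34 Rbm genes (RNA-binding motif) and 11 Srsf genes (serine/arginine-rich splicing factors). 2 further Rbm rows that match the pattern, both m6A writer cofactors, were left out by the rule. In the GENCODE annotation of GRCm38, 44 of the members are protein-coding, and the remaining one, *Rbm3os*, is a noncoding gene antisense to *Rbm3*.

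The cells were hematopoietic stem cells (HSCs, LSK CD48- CD150+), sorted in samples of 100 from C57BL/6 mice with loxP sites around an exon of *Ythdf2* on both alleles, which also carry GFP fused to the gene. *Ythdf2* encodes a cytoplasmic reader of N6-methyladenosine (m6A), the methyl mark on adenosines of mRNA, and promotes decay of marked transcripts. In *Ythdf2* CKO mice the *Vav-iCre* transgene, active in hematopoietic and some endothelial cells, deletes the floxed segment, so that all blood lineages carry the deletion from development on, whereas *Ythdf2* CTL mice carry the same floxed alleles without Cre. The groups were 4 young CTL, 4 young CKO, 4 aged CTL and 5 aged CKO mice, where aged means 1 yr, and each mouse gave 2 SMART-Seq2 libraries, A and B, a method that amplifies full-length polyadenylated RNA. Levels are given as CPM, counts scaled to the total of each mouse and by TMM over all 17 mice, with both libraries of a mouse added. One library of aged CTL mouse 99 was left out for its low total, so that this mouse rests on 1 library.

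Totals were between 2218618 and 10125624 counts per mouse. *Ythdf2* itself ranged from 93.3 to 123 CPM in young CTL mice and from 50.3 to 60.2 CPM in young CKO mice. In aged mice, 1 animal of each genotype went against its label: the mouse labelled aged CKO 121 had 188 CPM, above every CTL mouse, and the mouse labelled aged CTL 124 had 70.4 CPM, below every aged CKO mouse. Both stay in the groups of their labels, and values without them are given beside the members' results between genotypes in aged mice. Markers of HSCs such as *Kit* and *Meis1* were present in every mouse. Of the B cell genes, *Ms4a1* had no count and *Cd79a* at most 3 counts in a mouse. The granulocyte gene *Mpo* reached 80.8 CPM. Its means were 10.6 and 3.69 CPM in young CTL and CKO mice and 26.8 and 2.63 CPM in aged ones. The erythroid gene *Klf1* lay between 8.91 and 59.1 CPM. The summed level of the megakaryocyte markers *Pf4*, *Itga2b* and *Gp9* moved with genotype, most of it *Pf4*. The sum was 446 to 773 CPM in young CTL, 894 to 2893 CPM in young CKO, 303 to 437 CPM in aged CTL and 481 to 1699 CPM in aged CKO mice, where the mouse labelled 121 was lowest. Of the means of the 3 markers, all were higher in aged CKO than in aged CTL mice, but in young mice *Gp9* went the other way, from 84.5 CPM in CTL to 61.7 CPM in CKO mice, beside 439.7 and 1529 CPM for *Pf4*. The part of these markers in the genotype differences below was not tested. In samples of this kind, fewer cells of a type and less RNA per cell cannot be told apart.

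SR proteins bind exonic enhancers through RNA recognition motifs and recruit the spliceosome through an arginine/serine-rich tail, and several of them shuttle to the cytoplasm and take part in mRNA export and translation. Many of their genes hold a poison exon, whose inclusion sends the transcript to nonsense-mediated decay and so limits the protein's own level. The Rbm genes share only the RNA recognition motif and have diverse roles: *Rbm5*, *Rbm6* and *Rbm10* are related regulators of exon inclusion linked to apoptosis, *Rbm3* encodes a protein induced by mild cold, *Rbm8a* encodes the Y14 subunit of the exon junction complex, *Rbm38* encodes a p53-induced regulator of mRNA stability, and *Rbm19* encodes a nucleolar protein needed for ribosome production.

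The mark that *Ythdf2* reads is placed on adenosines in a sequence context of which GGACT is the commonest form, so the transcripts of the members were searched for these 5 letters on the sense strand. In the principal transcripts of 44 members the median was 0.85 GGACT per kb, against 1.05 over 11832 measured genes. The 33 Rbm transcripts had a median of 1.02 per kb and the 11 Srsf transcripts one of 0.382 per kb. *Rbm17* held the densest set, 3.75 per kb, and *Srsf9* the densest among the SR proteins, 2.58 per kb. No GGACT was found in the transcripts of *Srsf5*, *Rbm38*, *Rbm4* or *Rbm45*, a share of 9.09% beside 8.11% of all measured genes. For the members on which the results below turn, the GGACT nearest the stop codon is shown with 11 bases on each side, 5′ to 3′, with the match in capitals:
*Rbm5*: tcccacctgagGGACTgtgaacagagg
*Rbm3*: tttaatttccaGGACTtgccttctgcc
*Rbm19*: ttcggctttgtGGACTtcatcaccaag
*Srsf3*: taccctgtattGGACTgtaataaacag
*Srsf7*: ccagaaagaatGGACTgaagttctcaa
*Srsf10*: gttatcccaatGGACTtagtatattct
The site in *Srsf7* begins 6 bases before the last base of the stop codon, the one in *Rbm5* 182 bases after it in the 3′ UTR, the one in *Srsf3* 1760 bases after it, that in *Srsf10* 1073 bases after it, and that in *Rbm19* 246 bases before it in the coding sequence. The one in *Rbm3* lies in the 5′ UTR, 480 bases before the end of the stop codon. A match describes the letters of the transcript and says nothing of whether the adenosine was methylated in these cells.

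Levels between genes were compared per kilobase of exon. *Srsf7*, an SR protein that also acts in mRNA export, stood highest with 371 CPM per kb as the mean of 17 mice, followed by *Srsf2* with 299 CPM per kb, *Rbm38* with 139.7 CPM per kb and *Srsf5* with 113 CPM per kb. Among the Rbm genes, *Rbm8a* followed *Rbm38* with 78.8 CPM per kb, and *Rbm39*, a cofactor of U2AF, with 78.3 CPM per kb. *Rbm5* had 20.1 CPM per kb. All exonic bases of the gene were used as its length, and with the principal transcript alone *Rbm5* had 96.7, *Srsf5* 286 and *Rbm39* 194 CPM per kb, which moved *Rbm5* from place 22 of 45 to place 12 of the 44 with such a transcript. At the low end, *Rbm20*, *Rbm44* and *Srsf12* had at most 21, 45 and 19 counts in any mouse. Reads of some members can also belong to an annotated neighbour. On the opposite strand *Srsf2* shares exonic bases with *Mettl23* and *Mfsd11*, and *Srsf4* with *Gm12992*. *Rbm19* shares 771 exonic bases with *Gm10390* and *Rbm10* shares 117 with *Ndufb11*, also on the opposite strand. *Rbm4* and *Rbm14* share some with *Gm21992* on the same strand.

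**Figure D1:**
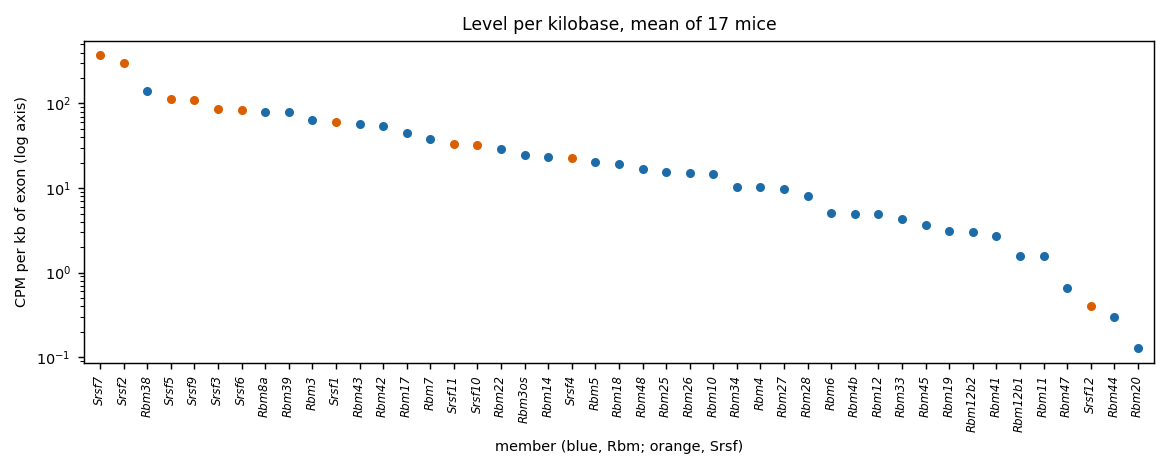
Level of each of the 45 members per kilobase of exon, as the mean CPM of 17 mice divided by the exonic length, on a log axis. Srsf genes (orange) hold 6 of the 7 highest places from *Srsf7* at 371 to *Srsf6* at 84.5 CPM per kb, and *Rbm20* stands lowest.

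The first comparison asked which members differ between young CKO and young CTL HSCs. None passed the test: of 43 members tested (*Rbm20* and *Srsf12* had too few counts), 0 had an adjusted p below 0.05 by edgeR (quasi-likelihood F test, Benjamini-Hochberg over all genes), against 0.174% of the 11526 genes tested. At an unadjusted p below 0.05 there were 3 members, 1 higher and 2 lower, against 7.06% of all genes. DESeq2, limma and the likelihood ratio test also called 0 members. The median log2 fold change of the members was −0.067, with 29 of 43 below 0. Over all genes the median was −0.00093, with 5779 of 11526 below 0. The median level of the members had an SD between mice of 0.072 on the log2 scale.

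*Rbm3* was the member with the smallest p in young mice. Its level was 380.1, 407, 412 and 420.3 CPM in the 4 CTL mice and 279.9, 329.7, 299.8 and 326 CPM in the 4 CKO mice. Every CKO mouse lay below every CTL mouse, and *Rbm3* was the only one of the 43 members tested whose groups did not overlap, against 4.77% of all genes. The log2 fold change was −0.39 (95% CI −0.65 to −0.13), with an unadjusted p of 0.00633 and an adjusted p of 0.406 in edgeR. *Rbm3* lies on the X chromosome (8138975 to 8145880, GRCm38), and Y-linked reads were present in 3 of 4 young CTL mice and in 1 of 4 young CKO mice. With the Y-linked level as a covariate its log2 fold change was −0.45, and it was −0.54 in the A libraries alone and −0.18 in the B libraries alone. The antisense gene *Rbm3os*, with which it shares 94 exonic bases (whether strand was used in counting is not given in the sources used here), had a log2 fold change of −0.20 (95% CI −0.67 to 0.27), or −0.34 in the A and 0.056 in the B libraries alone.

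*Rbm5* was at 229, 262, 271 and 289 CPM in young CTL mice and at 343, 319, 349 and 271 CPM in young CKO mice. Of the CKO mice, 3 lay above all CTL mice and mouse 4 lay among them. The means were 263 ± 25.3 CPM and 321 ± 35.6 CPM (SD over 4 mice). The log2 fold change was 0.29 (95% CI 0.00052 to 0.58) with an adjusted p of 0.706 in edgeR, and exact permutation of the mice, two-sided, gave p = 0.0857. The libraries of these mice disagreed. In the A libraries *Rbm5* was at 198, 254, 285 and 263 CPM in CTL and at 407, 355, 388 and 298 CPM in CKO mice, without overlap and with CKO higher. In the B libraries it was at 262, 274, 249.9 and 316 CPM in CTL and at 269, 248, 258 and 229.8 CPM in CKO mice, with overlap and with the CKO mean lower. Fits of the A or the B libraries alone, an alternative chosen after seeing the data, gave log2 fold changes of 0.53 and −0.13, with adjusted p of 0.601 and 0.937 in edgeR, so that the higher level in young CKO mice rests on the A libraries.

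*Srsf5*, an SR protein whose transcript responds to insulin and growth signals, was at 454, 512, 589.6 and 525 CPM in CTL and 444, 456, 622 and 538 CPM in CKO mice. These ranges overlapped, the log2 fold change was −0.01 (95% CI −0.31 to 0.29), and the exact permutation test gave p = 0.971 (n = 4 each).

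*Rbm27*, a zinc finger protein that works with the nuclear RNA exosome, had the largest difference of the members with a small p, −0.52 (95% CI −1.02 to −0.032) on the log2 scale, from 61.1, 98.1, 49.9 and 68.1 CPM in CTL to 40.7, 59.8, 47.4 and 44.6 CPM in CKO mice, with an adjusted p of 0.674 in edgeR. CKO mouse 2 overlapped the CTL range, and the log2 fold change was −0.67 in the A and −0.25 in the B libraries alone. Among the SR proteins, 9 of 10 tested had a log2 fold change below 0 and none reached an unadjusted p below 0.05. The smallest p values belonged to *Srsf11* (−0.27, from 316 ± 47.1 CPM to 262 ± 41 CPM), *Srsf1* (−0.22), the founding SR protein, and *Srsf3* (−0.14), with adjusted p between 0.811 and 0.894 in edgeR. In the A and the B libraries alone *Srsf11* had −0.35 and −0.14, *Srsf1* −0.15 and −0.26, and *Srsf3* −0.097 and −0.24. With 1 mouse left out *Srsf1* ran from −0.34 to −0.080.

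In aged mice the members again gave no call: 0 of 43 tested had an adjusted p below 0.05 in edgeR (*Rbm20* and *Rbm44* were too low to test), against 0% of 11961 genes. At an unadjusted p below 0.05 there were 4 members, *Rbm19* higher and *Rbm5*, *Rbm33* and *Rbm27* lower, against 10.1% of all genes. Without the mice labelled 121 and 124, edgeR called 0.333% of 12005 genes and 0 members, and 3 members had an unadjusted p below 0.05 against 11.6% of genes. DESeq2 called 1 member, *Rbm19*, and the likelihood ratio test, which took libraries as replicates, called 2, *Rbm19* and *Rbm5*, while limma called 0.

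*Rbm5* had 443, 342, 378 and 366 CPM in aged CTL mice (65, 99, 114 and the one labelled 124) and 230.1, 292, 288, 310.4 and 282 CPM in aged CKO mice (78, 81, 94, the one labelled 121, and 122). All 5 CKO mice lay below all 4 CTL mice, and *Rbm5* was the only one of 43 tested members without overlap, against 3.48% of all genes. The means were 382 ± 43.3 CPM (SD, n = 4) and 281 ± 30.1 CPM (SD, n = 5). The log2 fold change was −0.44 (95% CI −0.77 to −0.11), with an unadjusted p of 0.0121 and an adjusted p of 0.395 in edgeR. Exact permutation of the mice gave a two-sided p of 0.00794, the smallest that 4 against 5 mice allow, and 0.0286 without 121 and 124, again the smallest possible. Without these 2 mice the log2 fold change was −0.51 (adjusted p = 0.23 in edgeR). In the A libraries alone the CKO mice lay below the CTL mice without overlap, with a log2 fold change of −0.52. In the B libraries, of which mouse 99 has none, it was −0.38, and CKO mouse 81, at 362 CPM, lay above the mouse labelled CTL 124, at 353 CPM.

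*Rbm19* showed the largest difference of the 43 members tested. Aged CTL mice had 7.65, 9.49, 17.3 and 7.42 CPM and aged CKO mice 40.3, 40.3, 40.5, 15.3 and 28.8 CPM. The CKO mice other than 121 lay between 28.8 and 40.5 CPM, above every CTL mouse. The mouse labelled CKO 121 lay at 15.3 CPM, within the CTL range. The mouse labelled CTL 124, whose *Ythdf2* level also goes against its label, had 7.42 CPM, the lowest of all aged mice. In young mice the gene was between 5.3 and 14.5 CPM in CKO and between 6.88 and 13.4 CPM in CTL mice. The log2 fold change in aged mice was 1.67 (95% CI 0.80 to 2.54), with an adjusted p of 0.297 in edgeR, and 1.70 with an adjusted p of 0.0753 without 121 and 124. The gene is sparsely read, and paired libraries of 1 mouse differed by a median of 0.87 on the log2(CPM + 0.5) scale, against 0.32 for *Rbm5*. In the A libraries alone the genotype difference in aged mice was 1.496 on the log2 scale, against 1.82 in the B libraries.

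*Rbm33*, a gene linked to mRNA export, was at 35, 68.9, 91.8 and 95.5 CPM in aged CTL and 37.7, 42.9, 46.7, 54.2 and 32.5 CPM in aged CKO mice, a log2 fold change of −0.76 (95% CI −1.37 to −0.14), or −0.71 without 121 and 124. CTL mouse 65 lay within the CKO range, and the adjusted p was 0.413 in edgeR. The A libraries alone gave −0.23 and the B libraries alone −1.32. In the mouse labelled CTL 124 the A library had 36.1 CPM and the B library 150 CPM. *Rbm27* was at 62.5, 59, 100.3 and 119 CPM in CTL and 58.8, 44.9, 58, 65.1 and 67.1 CPM in CKO mice, with overlap of the groups and a log2 fold change of −0.53 (95% CI −1.04 to −0.021). Its highest values came from CTL mouse 114 and the mouse labelled 124, and without 121 and 124 the log2 fold change was −0.38. It was −0.88 in the A and −0.18 in the B libraries alone.

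*Srsf5* was at 433, 471, 442 and 321 CPM in aged CTL and at 344, 421, 387, 327 and 352 CPM in aged CKO mice. The lowest of all 9 was the mouse labelled CTL 124, and without it and 121 the groups did not overlap, which was so for 5 of 43 tested members (*Rbm5*, *Rbm39* and *Srsf5* lower, *Rbm19* and *Rbm42* higher) against 11.5% of all genes. For *Srsf5* the log2 fold change was −0.18 (95% CI −0.53 to 0.17) over all mice and −0.26 without both, with an adjusted p of 0.555 in edgeR and a two-sided p of 0.0571 by exact permutation of the mice. Of the 11 SR proteins, 9 had a log2 fold change below 0 in aged mice, beside 6019 of 11961 genes. Without 121 and 124 it was 8 of 11, and none had an unadjusted p below 0.05 in edgeR in either case. Beside *Srsf5*, the smallest p values were those of *Srsf6*, −0.33 (95% CI −0.82 to 0.17) with all mice and −0.25 without 121 and 124, and of *Srsf10*, an SR protein that can repress splicing when dephosphorylated, −0.14 (95% CI −0.50 to 0.23) and −0.11 in turn.

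**Figure D2:**
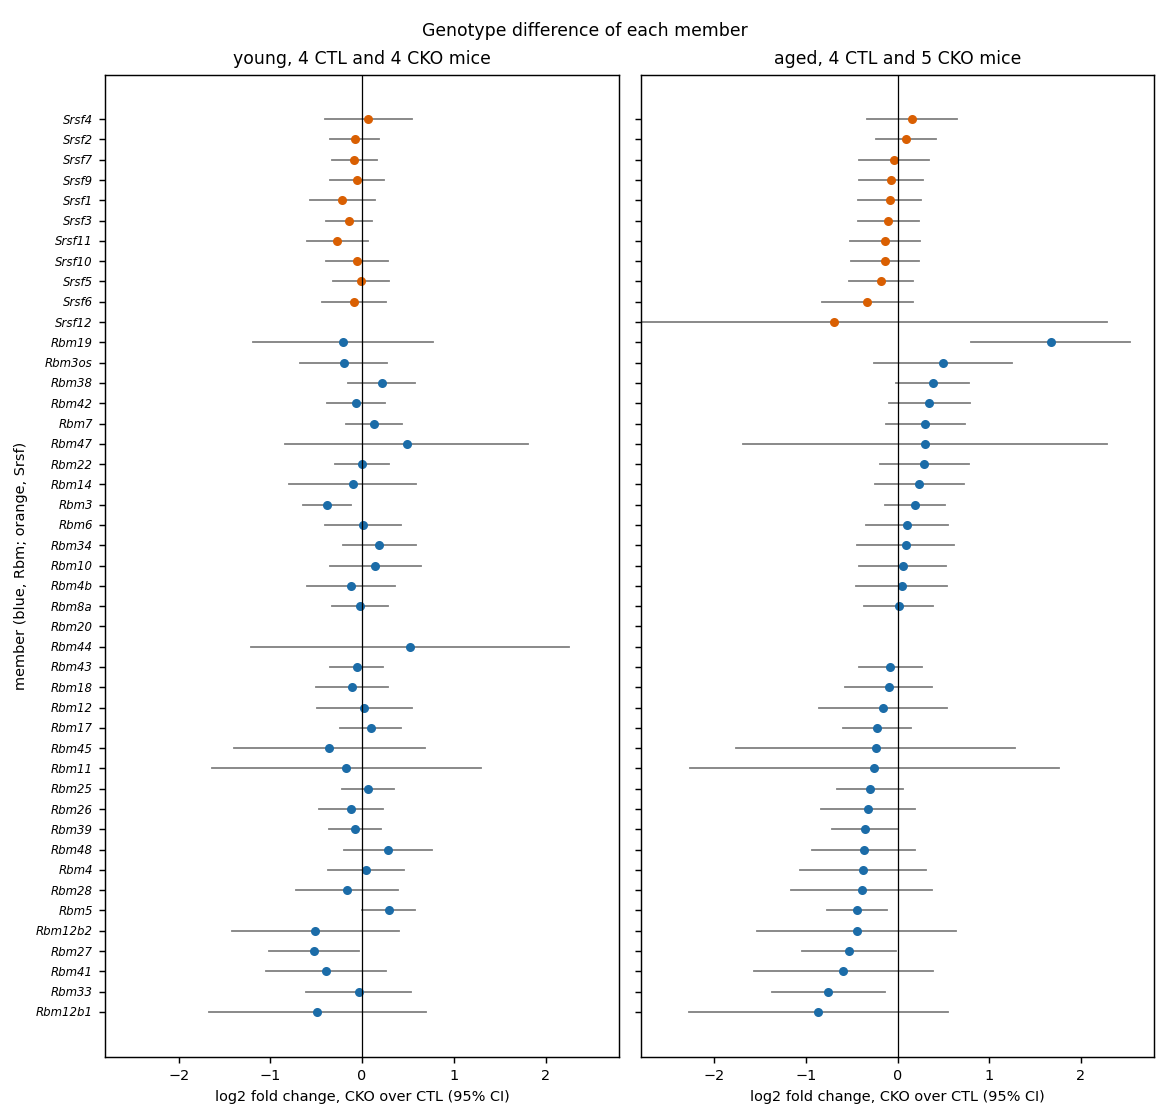
Log2 fold change between CKO and CTL mice for each member, in young (left) and aged (right) mice, with 95% confidence intervals from edgeR. Members too low to test have no point, the interval of *Srsf12* reaches beyond the left edge in aged mice, and *Rbm5* lies at 0.29 in young mice, where the A and B libraries differ in sign, and at −0.44 in aged mice.

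Whether the genotype difference itself differed with age was tested in 1 fit over all 17 mice. 0 of 45 members were called by edgeR, against 0% of 12352 genes, and 3 members had an unadjusted p below 0.05, against 4.76% of genes. These were *Rbm5*, whose difference between aged and young log2 fold changes was −0.73 (95% CI −1.15 to −0.32) with an unadjusted p of 0.00133, *Rbm19* with 1.87 (95% CI 0.64 to 3.09), and *Rbm3* with 0.57 (95% CI 0.18 to 0.97). All 3 had an adjusted p of 0.942 in edgeR. Without 121 and 124 the difference of *Rbm5* was −0.79 with an adjusted p of 0.229. It was −1.04 in the A libraries alone and −0.28 in the B libraries alone, where the unadjusted p was 0.284. *Rbm19* had 2.21 and 1.02 in turn, and *Rbm3* 0.70 and 0.33. DESeq2, limma and the likelihood ratio test also called 0 members.

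**Figure D3:**
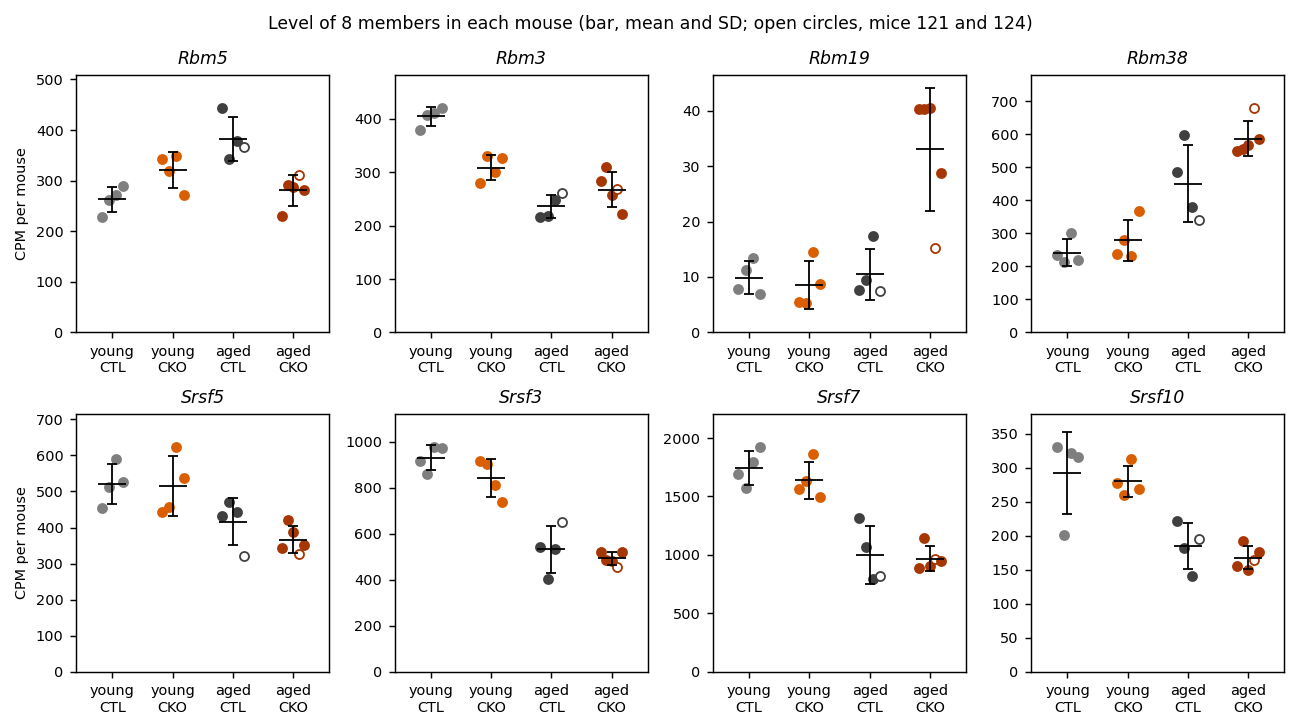
CPM of 8 members in every mouse by group. Filled circles are mice, open circles are mice 121 and 124, whose *Ythdf2* level goes against their label, and bars give the mean and SD. *Rbm5* is lower in all 5 aged CKO than in the 4 aged CTL mice, and *Srsf3* is between 403 and 649 CPM in aged CTL against 859 to 975 CPM in young CTL mice.

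Aged and young mice of 1 genotype were compared next. The descriptions of the libraries carry 1 code for all young and another for all aged mice, so that age and whatever else differed between these sets of libraries cannot be told apart. In CTL mice 10 of 45 members were called by edgeR, 3 higher with age against 6.7% of 12352 genes and 7 lower against 8.07% of genes. In CKO mice 10 were called, 4 higher against 7.21% of genes and 6 lower against 9.34%. 7 members were called in both genotypes and in the same direction, which is 70% of each list, beside 1074 genes called in both over the whole table, 58.8% of those called in CTL and 52.5% of those called in CKO mice. They are *Srsf3*, *Srsf7*, *Srsf10*, *Rbm43* and *Rbm8a*, which fell, and *Rbm38* and *Rbm10*, which rose. The A libraries alone gave 8 called members in CTL and 6 in CKO mice, beside 11% and 8.34% of all genes, where both libraries together gave 14.8% and 16.6% of genes. The B libraries alone, with 3 aged CTL mice, gave 0 members in CTL and 5 in CKO mice, beside 0.801% and 8.01% of genes, and 10 members in CTL mice had an unadjusted p below 0.05 in edgeR. In that fit of CTL mice *Srsf3* was at −0.68 (adjusted p = 0.066) and *Srsf7* at −0.83 (adjusted p = 0.064), and *Rbm38* and *Rbm5* had 0.54 and 0.51, against 1.06 and 0.61 in the A libraries alone. In CKO mice *Srsf3*, *Srsf7* and *Rbm38* were called from either set alone, *Srsf10*, *Srsf5* and *Rbm42* from the A libraries, *Rbm43* and *Rbm8a* from the B libraries, and *Rbm10* and *Rbm19* from neither. In CTL mice *Rbm10* and *Rbm43* were not called from the A libraries. The median log2 fold change of all genes was 0.11 in CTL and 0.07 in CKO mice, and 0.10 and 0.056 with the size factors of DESeq2, so that the values below shift by that much relative to the typical gene.

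*Srsf3*, the smallest SR protein, was at 915, 859, 975 and 973 CPM in young and 540.4, 403, 534 and 649 CPM in aged CTL mice. In CKO mice it was at 915, 904, 813 and 737 CPM and 519, 487, 480.5, 456 and 520.4 CPM. No aged mouse reached the level of any young mouse of its genotype. With age, 17.1% of 12352 genes in CTL and 20.4% in CKO mice had groups without overlap. Of 45 members, 3 were higher and 6 lower in this way in CTL mice, and 3 higher and 9 lower in CKO mice. The log2 fold change was −0.81 (95% CI −1.10 to −0.51) in CTL (adjusted p = 0.00165 in edgeR) and −0.77 (95% CI −1.05 to −0.50) in CKO mice (adjusted p = 0.000818), and relative to the median of all genes −0.92 and −0.84.

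*Srsf7* was at 1693, 1569, 1796 and 1919.8 CPM in young CTL mice and at 1319, 1069, 789.5 and 818 CPM in aged CTL mice, and at 1568, 1632, 1859.8 and 1495 CPM and 884, 1146, 902, 961 and 951 CPM in CKO mice. The groups did not overlap in either genotype, which was so for 17.1% of all genes in CTL and 20.4% in CKO mice. The log2 fold change was −0.80 (95% CI −1.13 to −0.48) in CTL (adjusted p = 0.00271 in edgeR) and −0.76 (95% CI −1.06 to −0.45) in CKO mice (adjusted p = 0.00181). *Srsf10* fell by 0.66 on the log2 scale in CTL and by 0.74 in CKO mice, where the groups did not overlap. In CTL mice they did, and young CTL mouse 2, at 202 CPM, lay below aged mouse 65. Without young CTL mouse 1 the adjusted p of *Srsf10* in CTL mice was 0.0534. *Srsf5* was called in CKO mice, −0.49 (95% CI −0.80 to −0.19), a call lost without young CKO mouse 3 (adjusted p = 0.0976), young CKO mouse 4 (0.0539) or the mouse labelled 121 (0.0535), and in the B libraries alone (−0.29, adjusted p = 0.309, against −0.61 in the A libraries alone). It had −0.32 (95% CI −0.64 to 0.0014) in CTL mice, and the test of the difference between the genotypes gave an adjusted p of 0.999 in edgeR.

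*Rbm38* rose. It was at 234, 213, 301 and 218 CPM in young and 485, 597, 379 and 339.9 CPM in aged CTL mice, and at 237, 278, 232 and 368 CPM and 548, 553, 566, 678 and 585 CPM in CKO mice. All aged mice lay above all young mice of their genotype. Groups did not overlap for 17.1% of all genes in CTL and 20.4% in CKO mice. The log2 fold changes of *Rbm38* were 0.90 (95% CI 0.51 to 1.29) (adjusted p = 0.00413 in edgeR) in CTL and 1.07 (95% CI 0.70 to 1.45) (adjusted p = 0.000616) in CKO mice. *Rbm10*, the X-linked paralog of *Rbm5*, had log2 fold changes of 0.75 and 0.66, with adjusted p of 0.0353 and 0.0458 in edgeR. Its call was lost in CTL mice without any 1 of the young CTL mice or aged CTL mice 99 or 114, with adjusted p of up to 0.105. In CKO mice it was lost without young CKO mouse 2, 3 or 4 or aged CKO mouse 78, 81, 94 or 121, with adjusted p of up to 0.159. Of the settings other than 1 mouse left out, 3 in CTL and 4 in CKO mice also lost the call, among them the A and the B libraries alone. *Rbm5* rose in CTL mice by 0.54 (95% CI 0.24 to 0.84) on the log2 scale (adjusted p = 0.0168 in edgeR), with no overlap of the groups, and had −0.19 (95% CI −0.48 to 0.092) in CKO mice, where the sign turned between −0.43 in the A and 0.23 in the B libraries alone. Without young CTL mouse 1 the adjusted p of *Rbm5* in CTL mice was 0.0655.

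*Rbm3* fell in CTL mice from the values given above to 217, 219, 248 and 261 CPM, a log2 fold change of −0.78 (95% CI −1.06 to −0.49), and its antisense gene *Rbm3os* fell with one of −1.30 (95% CI −1.88 to −0.73). Y-linked reads were present in 3 of 4 young and 1 of 4 aged CTL mice, and with their level as a covariate *Rbm3* had −0.82 and X-linked *Rbm10* 0.80. In CKO mice *Rbm3* went to 284, 309, 257, 268 and 221 CPM, −0.21 (95% CI −0.48 to 0.063). *Rbm43* and *Rbm8a* were lower in aged than in young mice of both genotypes, with log2 fold changes of −0.57 in CTL and −0.59 in CKO mice for *Rbm43* and of −0.59 and −0.56 for *Rbm8a*. In the A and the B libraries alone *Rbm8a* had −0.68 and −0.36 in CTL mice and −0.51 and −0.68 in CKO mice. *Rbm19* (1.95) and *Rbm42* (0.61), a spliceosome component, were higher and called in CKO mice, while their values in CTL mice were 0.085 and 0.20. For *Rbm19* in CKO mice the A libraries alone gave 1.96 and the B libraries alone 1.73, neither of them called by edgeR (adjusted p = 0.064 and 0.0644), and its value in CTL mice turned from −0.25 to 0.71. *Rbm42* in CKO mice had 0.81 in the A libraries and 0.27 in the B libraries, where it was not called (adjusted p = 0.453 in edgeR). The call of *Rbm8a* was lost in CTL mice without young CTL mouse 1 (adjusted p = 0.0644), young CTL mouse 4 (0.0967) or aged CTL mouse 99 (0.0692) and in CKO mice without young CKO mouse 2 (0.059) or 3 (0.0599). That of *Rbm42*, of whose exonic bases 1650 lie also in *Gm21982*, a gene annotated on the same strand, was lost without young CKO mouse 2 (0.0587), young CKO mouse 3 (0.065) or the mouse labelled 121 (0.0753). Of the remaining members whose p was among the smallest, *Rbm20* (3.14 in CTL) rested on at most 21 counts, and *Srsf4* (0.47 in CTL) and *Rbm14* (0.73 in CKO) missed the threshold. *Rbm14* was called in CKO mice by limma (adjusted p = 0.0213), with the Y-linked covariate (0.0457, edgeR) and without young CKO mouse 1 (0.0199). Handling stress genes (*Fos*, *Jun*, *Egr1*, *Ier2*, *Dusp1* and *Zfp36*) had a summed level of 1562 to 3445 CPM in young CTL and 2693 to 4454 CPM in aged CTL mice, and at 1333 to 2633 and 2951 to 6024 CPM in CKO mice, and their part in these results was not tested. Leaving out 1 mouse lowered the number of called members to 6 in CTL mice without young CTL mouse 1, where edgeR called 8.75% of all genes, and to 6 in CKO mice without young CKO mouse 3, where it called 9.46% of all genes. Without the mice labelled 121 and 124 it was 10 in both genotypes, beside 17.6% of all genes in CTL and 18.1% in CKO mice, and in CKO mice *Rbm39* was then called lower (−0.42, adjusted p = 0.0297 in edgeR) and *Rbm10* was not (adjusted p = 0.0713). *Cd48*, on which the sort excludes cells, was at 53.8 to 87 CPM in young CTL, 97.9 to 106 CPM in young CKO, 0.629 to 28.2 CPM in aged CTL and 1.86 to 19.5 CPM in aged CKO mice, and its part was not tested either.

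**Figure D4:**
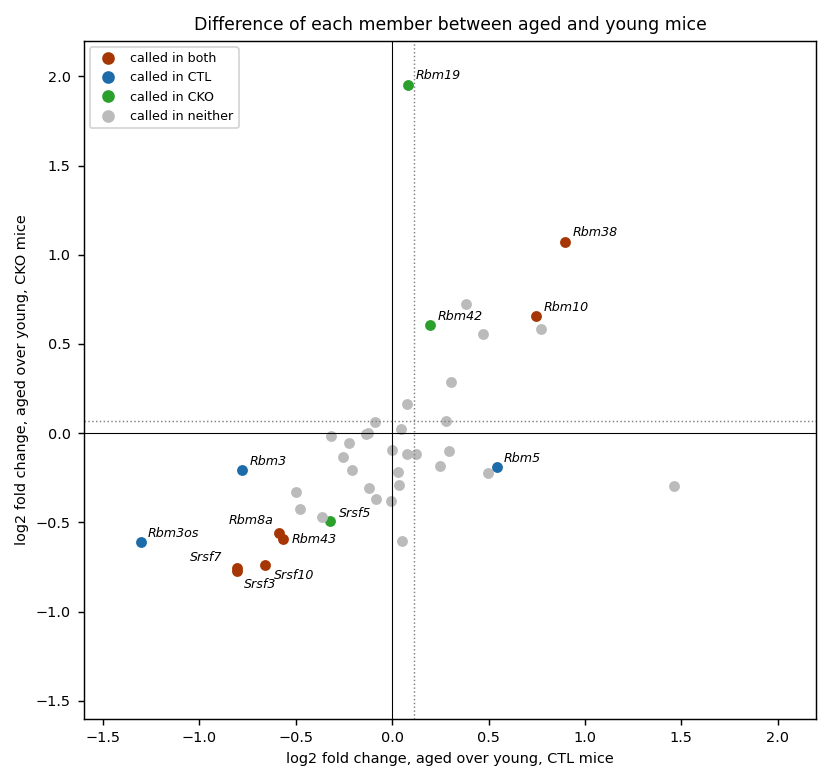
Log2 fold change between aged and young mice for 43 of the 45 members, in CTL (horizontal) and CKO mice (vertical). Colours mark members called by edgeR, dotted lines the medians of all genes, and *Rbm20* and *Rbm44* lie outside the axes. *Srsf3*, *Srsf7*, *Srsf10*, *Rbm43* and *Rbm8a* lie low in both genotypes and *Rbm38* and *Rbm10* high in both.

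Over all genes, edgeR called 14.8% in aged against young CTL mice (6.7% higher and 8.07% lower) and 16.6% in CKO mice (7.21% higher and 9.34% lower), beside which the counts by role are to be read. The SR proteins gave 3 called lower and 0 higher of 11 in aged against young CTL mice and 4 lower and 0 higher in CKO mice, with median log2 fold changes of −0.22 and −0.22. The 3 paralogs *Rbm5*, *Rbm6* and *Rbm10* gave 2 called higher in CTL and 1 in CKO mice. Of the 7 spliceosome-associated Rbm genes 0 were called in CTL and 1, *Rbm42*, in CKO mice, where 6 of 7 had a log2 fold change below 0. The 11 other Rbm genes, among them the *Rbm4* and *Rbm12* families, gave 0 calls with age in either genotype. The 5 tested genes of mRNA stability, export and the cold response gave 1 called higher (*Rbm38*) and 2 lower (*Rbm3* and *Rbm43*) in CTL and 1 higher and 1 lower in CKO mice. Of 4 Rbm genes of the exon junction, nuclear exosome and 3′ end, 1 (*Rbm8a*) was called lower in each genotype. The 3 nucleolar ones gave 0 calls in CTL and 1 higher (*Rbm19*) in CKO mice. By genotype edgeR called no member of a role group in young or aged mice (the calls of *Rbm19* and *Rbm5* by other tools in aged mice are given above). The median log2 fold change of the spliceosome-associated group was −0.0046 in young and −0.30 in aged mice, or −0.25 without 121 and 124. None of its genes had an unadjusted p below 0.05 in edgeR. The medians of the other role groups in aged mice ran from −0.24 (other Rbm genes) to 0.19 (mRNA stability, export and cold response).

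The 22 members not named by rule had mean levels from 1.27 CPM (*Srsf12*) to 269.8 CPM (*Rbm25*). By genotype their log2 fold changes ran from −0.51 (*Rbm12b2*) to 0.52 (*Rbm44*) in young and from −0.86 (*Rbm12b1*) to 0.30 (*Rbm7*) in aged mice, with 0 and 0 at an unadjusted p below 0.05 in edgeR. Without 121 and 124 the range in aged mice was wider, from −1.47 (*Srsf12*) to 2.56 (*Rbm44*), at both ends a gene with few counts, *Rbm12b1* was at −0.42, and *Rbm47* turned from 0.30 with all mice to −1.31, and 0 had an unadjusted p below 0.05. With age they ran from −3.04 (*Rbm44*) to 1.46 (*Srsf12*) in CTL and from −0.87 (*Rbm44*) to 0.58 (*Rbm47*) in CKO mice, and 0 and 0 of them were called by edgeR. In CKO mice the value of *Rbm47* rests on the mouse labelled 121 and was −0.66 without 121 and 124.

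**Figure D5:**
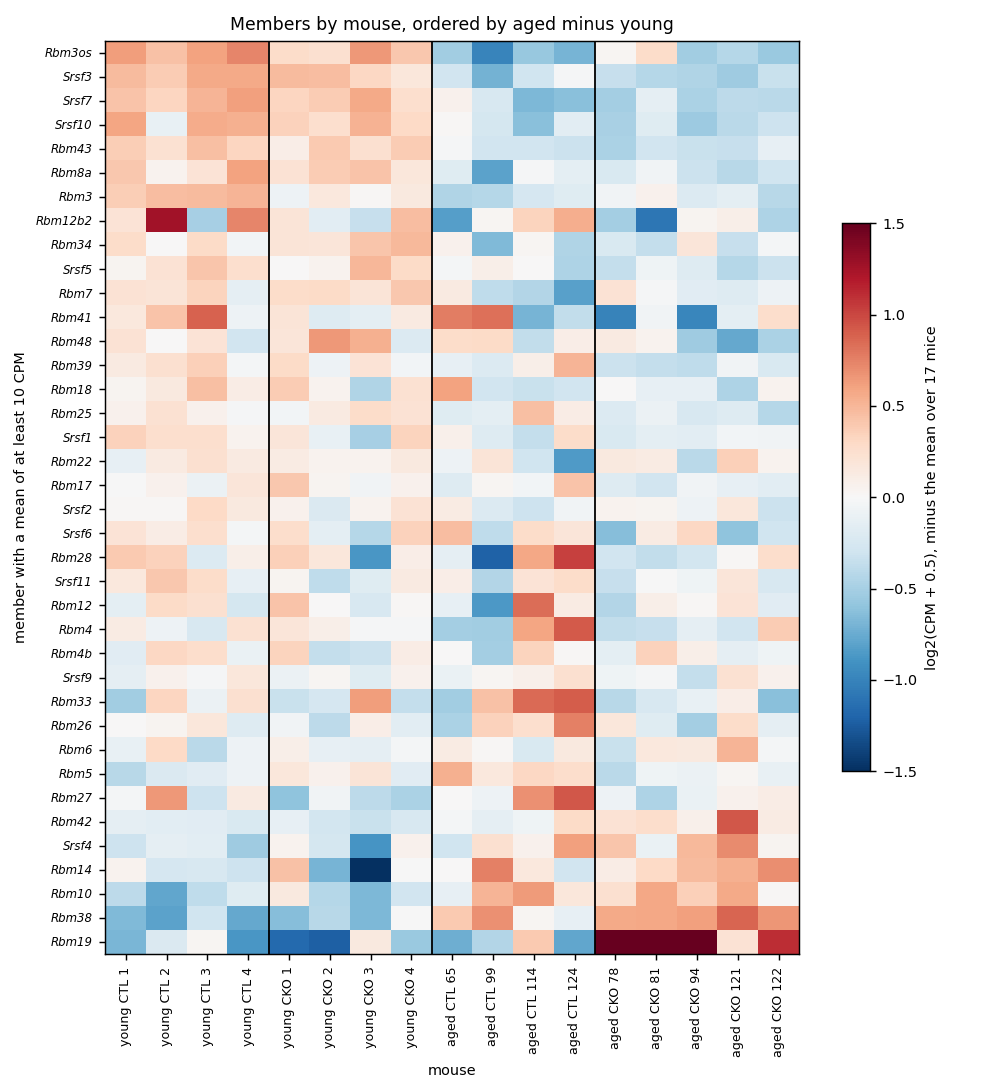
Log2(CPM + 0.5) of the 38 members with a mean of at least 10 CPM in each of 17 mice, as the deviation from the mean over all mice, with colours capped at 1.5. Rows are ordered from members lower in aged mice (*Rbm3os*, *Srsf3*) to members higher in aged mice (*Rbm38*, *Rbm19*). The 4 aged CKO mice other than 121 are high for *Rbm19*, and the mouse labelled CTL 124 is low for it.

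The wider splicing machinery was followed in lists of genes that work with the members. By genotype, edgeR called none of 9 SR protein kinases and import factors, 20 SR-related proteins, 20 hnRNP proteins, 17 subunits of U2AF and the SF3 complexes, 27 other alternative splicing regulators and 10 nonsense-mediated decay factors, in young or in aged mice. At an unadjusted p below 0.05, against 7.06% of all genes, young mice had 1 lower SR-related protein, 1 lower hnRNP protein and 1 lower gene among the other regulators. In aged mice, against 10.1% of all genes, there were 0 higher and 6 lower SR-related proteins, 1 higher and 5 lower hnRNP proteins, 3 higher and 1 lower in the U2AF and SF3 list, 2 higher and 3 lower other regulators, 1 higher and 2 lower decay factors and 0 higher and 1 lower in the kinase and import list. Among the SR-related proteins the smallest p was that of *Luc7l3*, a U1-associated protein, at −0.38 and −0.63 on the log2 scale, beside *Acin1* (−0.68) and *Tra2b* (−0.43) in aged mice. *Ddx17*, a helicase that acts in splicing, had −1.45 and *Upf2*, a core decay factor, −0.91 in aged mice, with an adjusted p of 0.312 in edgeR for each. The highest log2 fold changes in aged mice were 0.76 among the other regulators, 0.67 among the decay factors and 0.65 in the U2AF and SF3 list. Without 121 and 124, again with 0 called, against 11.6% of all genes at an unadjusted p below 0.05, there were 0 higher and 3 lower SR-related proteins, 0 higher and 0 lower hnRNP proteins, 1 higher and 0 lower in the U2AF and SF3 list, 1 higher and 4 lower other regulators, 0 higher and 2 lower decay factors and 0 higher and 0 lower in the kinase and import list. *Luc7l3* was then at −0.69, *Acin1* at −0.59, *Tra2b* at −0.34, *Ddx17* at −0.92 and *Upf2* at −0.83 on the log2 scale, with adjusted p from 0.23 to 0.517 in edgeR. The higher genes were *Sf3b4* at 0.50 and *Pcbp1* at 0.37. *Hnrnph1* had −0.42 in young mice.

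With age, the counts of these lists stand beside 14.8% of all genes called in CTL and 16.6% in CKO mice. The U2AF and SF3 list gave 2 called higher and 4 lower of 17 in CTL mice and 3 higher and 3 lower in CKO mice. *Sf3b6*, which contacts the branch point, fell by 1.09 in CTL and 1.24 in CKO mice on the log2 scale, and *U2af1*, the small subunit that reads the 3′ splice site, by 1.09 and 1.04. At the other end, the log2 fold changes of this list reached 0.94 in each genotype. hnRNP proteins gave 2 higher and 2 lower of 20 in both genotypes, with *Hnrnpa3* lower (−0.95 and −1.58) and *Hnrnpl* higher (0.89 and 1.26). SR-related proteins gave 1 higher and 1 lower of 20 in CTL and 0 higher and 5 lower in CKO mice, where *Luc7l2* fell by 1.72. Among the SR protein kinases, *Clk2* was higher in both genotypes (0.83 and 0.88) and *Clk1* was called lower in CKO mice (−0.71), in all 1 higher of 9 in CTL and 1 higher and 2 lower in CKO mice. The other regulators gave 1 higher and 1 lower of 27 in CTL and 3 higher and 2 lower in CKO mice, with *Qk* higher in both (0.57 and 0.58), and the decay factors gave 1 higher of 10 in CTL, *Upf1*, and 2 higher and 1 lower in CKO mice.

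Promoters were read from 250 bases before to 50 after the RefSeq start site on GRCm38.p6. Of the 7 members called with age in both genotypes, *Srsf10*, *Rbm10* and *Rbm43* also have entries, and shown are the 3 with the smallest adjusted p in CKO mice, a choice made after their values were seen. They are *Srsf3* (chr17:29032410-29032709 on the plus strand) and *Srsf7* (chr17:80207256-80207555 on the minus strand), which fell, and *Rbm38* (chr2:173021652-173021951 on the plus strand), which rose. Each is written 5′ to 3′ on the gene's strand, with capitals for matches on either strand to the 5 motifs counted after them:
*Srsf3*: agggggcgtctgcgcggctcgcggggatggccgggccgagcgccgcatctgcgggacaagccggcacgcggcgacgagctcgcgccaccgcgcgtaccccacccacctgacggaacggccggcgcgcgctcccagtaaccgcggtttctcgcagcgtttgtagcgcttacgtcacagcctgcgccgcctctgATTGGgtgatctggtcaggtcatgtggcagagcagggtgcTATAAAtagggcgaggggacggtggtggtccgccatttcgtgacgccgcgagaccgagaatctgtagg
*Srsf7*: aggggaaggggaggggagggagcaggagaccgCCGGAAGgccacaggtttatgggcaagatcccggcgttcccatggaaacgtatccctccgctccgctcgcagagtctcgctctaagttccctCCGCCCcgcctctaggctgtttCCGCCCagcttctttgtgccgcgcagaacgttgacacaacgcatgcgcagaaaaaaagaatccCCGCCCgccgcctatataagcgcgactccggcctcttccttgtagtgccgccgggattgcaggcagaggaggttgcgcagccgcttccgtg
*Rbm38*: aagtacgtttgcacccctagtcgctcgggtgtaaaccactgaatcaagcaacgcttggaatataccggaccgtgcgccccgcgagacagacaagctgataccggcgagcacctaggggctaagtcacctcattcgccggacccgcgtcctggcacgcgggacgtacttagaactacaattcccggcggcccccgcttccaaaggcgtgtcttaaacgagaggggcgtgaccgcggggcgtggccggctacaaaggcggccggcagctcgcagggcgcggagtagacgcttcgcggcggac
The GC box GGGCGG was present in 59.5% of the promoters of the 37 members with an entry, against 63.2% of measured genes and 35.9% of all promoters, and CCAAT in 40.5%, 38.8% and 37.9% in turn. The Ets-like motif CCGGAAG was in 24.3%, 18.3% and 9.1%, the E-box CACGTG in 5.4%, 10.2% and 7.2%, and the TATA motif TATAAA in 16.2%, 7.0% and 14.2%. The window of *Srsf3* holds 1 CCAAT and 1 TATA motif, that of *Srsf7* 3 GC boxes and 1 Ets-like motif, and that of *Rbm38* none of the 5. Of those not shown, the window of *Srsf10* holds 3 GC boxes and 1 CCAAT, that of *Rbm10* 2 GC boxes, and *Rbm43* has 2 windows, one with 1 GC box, 2 CCAAT and 1 TATA motif and the other with 2 GC boxes, 1 Ets-like motif and 1 E-box. A match is a description of these letters and not a bound site.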

How the data were processed

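Poly(A) RNA of 100 sorted HSCs per library was sequenced by SMART-Seq2. Per the submitters' processing notes the reads were aligned with HISAT2 (version not given in the sources used here) to mm10 (GRCm38), and per the study's methods the authors assigned them to genes with Rsubread. The annotation and strand setting are not given in the sources used here. The deposited values are raw counts per gene and library, without normalization, for 13108 rows. Of 34 libraries, 1 with 187034 counts was left out, and the libraries of a mouse were added, which left 17 mice with 2218618 to 10125624 counts. 20 rows had names turned into dates, and 1 row had no counts. Tests used R 4.3.3 with edgeR 4.0.16: filterByExpr (minimum count 10, minimum total 15), TMM scaling, the quasi-likelihood test over all genes and a Benjamini-Hochberg threshold of 0.05. Each genotype contrast had its own fit within young or within aged mice, and the contrasts with age used 1 fit of all mice. Standard errors and intervals were derived from the F statistic. Reads shared by overlapping genes can affect single members. Replicates are separate mice.

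Named are *Rbm5* and *Srsf5*, and the 3 Rbm and 3 Srsf members with the smallest p in each genotype contrast. Named too are the 3 of each with the highest level per kb and the 5 with the smallest p in each direction with age. From other lists at most 3 genes per genotype contrast and only part of those called with age are named. The members, lists and rules were chosen with earlier results of these data known. Other settings tried were limma 3.58.1, DESeq2 1.42.0, its size factors, the likelihood ratio test over libraries, other filters, a replicate block, a Y-linked covariate and each mouse left out, and, chosen after seeing the data, the length of the principal transcript and fits of the A or B libraries alone. The methods were tested on simulated data. Gene positions come from GENCODE vM21 (GRCm38) and promoters from RefSeq.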

Additional observations from a re-analysis of the deposited data

Results flagged for a closer look

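Within groups of 4 or 5 mice, the gap between the highest or lowest mouse and the next, divided by the range, was compared with Dixon's 95% critical value for the 23 named members, in 92 groups. 6 were far from the rest of their group, against about 4.6 that chance gives at 1 in 20. *Rbm33* was at 78.6 CPM in young CKO mouse 3, where the next was 42.4 CPM. *Srsf10* was at 202 CPM in young CTL mouse 2, below 316 CPM in the next. *Rbm14* was at 87.9 CPM in young CTL mouse 1, above 71.3 CPM, and *Rbm43* at 146 CPM in aged CTL mouse 65, above 121 CPM. Both *Rbm38*, at 678 against 585 CPM, and *Rbm42*, at 225 against 141 CPM, stood out in the mouse labelled aged CKO 121, whose *Ythdf2* level goes against its label.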

How the results depend on the processing

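Every setting tried called 0 members between young CKO and CTL mice and 0 in the test of whether the genotype difference differed with age. This held with each mouse left out in turn as well. In aged CKO against CTL mice DESeq2 called 1 (*Rbm19*) and the likelihood ratio test over libraries 2 (*Rbm19* and *Rbm5*), against 0 in the remaining settings and from 0 to 0 with 1 mouse left out. The cause was not tested. Over all genes edgeR called 20 in young and 0 in aged mice, against 90 and 420 by the likelihood ratio test, 77 and 104 by DESeq2, and 1 and 5 with all 17 mice in 1 fit. With age, the number of called members ran from 6 to 11 in CTL and from 6 to 11 in CKO mice when 1 mouse was left out. The median log2 fold change of the members ran from −0.073 to −0.019 in young and from −0.14 to −0.073 in aged mice when 1 mouse was left out. *Srsf5* in young mice, at −0.01, changed sign without young CTL mouse 3 (0.056), young CKO mouse 1 (0.056) or young CKO mouse 2 (0.046), with a range from −0.11 to 0.056 over the mice left out. In the A libraries alone it was at 0.038. In the B libraries alone *Rbm5* turned to −0.13 in young mice and to 0.23 with age in CKO mice, and *Srsf10* in aged mice to 0.017, and the called members with age were 8 in CTL and 6 in CKO mice from the A and 0 and 5 from the B libraries. The cause was not tested. Young mice share numbers 1 to 4 across genotypes, but the deviations of same-numbered mice correlated by −0.036 to 0.051, so the numbers were not taken as pairs. A replicate block by mouse number called 0 members and 14 genes, with a member median of −0.068. Depth limits the lowest members, since 3 counts amount to 1.35 CPM in the shallowest mouse.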

Other observations

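Both libraries of a mouse can be set beside each other as a measure of the spread within a mouse. By a chi-square statistic per degree of freedom over genes, the pair of the mouse labelled CTL 124 differed most, at 54.4. The other pairs had 9.93 to 25.6. Whether they were separate sorts is not given in the sources used here. Among members with a mean of at least 10 CPM, the median difference between paired libraries on the log2(CPM + 0.5) scale was smallest for *Srsf3*, at 0.13, followed by *Rbm25* at 0.15 and *Rbm39* at 0.15. It was largest for *Rbm19*, at 0.87, and *Rbm12*, at 0.75. For *Rbm5* the median was 0.32 and the largest difference 0.59, while the pooled SD between mice of a group was 0.16 on the same scale.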
